A study of Homo sapiens with 6 samples.

Results

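The genes of the constitutive proteasome were followed in U2932 cells in which ROCK2 had been silenced. Members were the symbols of the deposited tables that start with PSMA to PSMG and a digit, without the immunoproteasome subunits PSMB8, PSMB9 and PSMB10 (and PSMB8-AS1) and the inducible activator genes PSME1 and PSME2. This rule gave 47 of 20667 symbols: 14 core particle subunits, 17 regulatory particle subunits, the tissue forms PSMA8 and PSMB11, 7 assembly chaperones, 3 other regulators and 4 symbols that share the name but are no subunit (PSMC3IP, PSMD5-AS1, PSMD6-AS2 and PSMG3-AS1).

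U2932 is a human lymphoma line of the ABC-DLBCL type, a large B-cell lymphoma whose cells resemble activated B cells. The study silenced ROCK2, a protein kinase, to ask which transcripts of these cells depend on it. RNA-seq was made of 3 libraries of stable lines infected with a lentiviral shRNA against ROCK2 (ROCK2 KD) and of 3 libraries of lines with a scrambled shRNA (Scr), numbered 1 to 3 in each group. Both groups carried the same pLKO.1 vector with puromycin resistance and tGFP, and nothing in the labels says whether the libraries of a group came from separate infections or cultures.

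The proteasome degrades proteins tagged with ubiquitin. Its core particle is a barrel of outer alpha rings, which gate the entry, and inner beta rings, in which PSMB5, PSMB6 and PSMB7 carry the active sites. The regulatory particle caps the barrel: its base holds ubiquitin receptors and a ring of ATPases, which unfolds the substrate and feeds it into the core, and its lid removes the ubiquitin chain. Subunit genes are known to be transcribed together, with NFE2L1 (also called NRF1) binding antioxidant response elements in many of their promoters. In ABC-DLBCL and other B-cell cancers the proteasome is of interest as a drug target.

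The promoters shown here are those of the core and regulatory subunits with the highest and the lowest fitted difference (PSMA3 and PSMB3, PSMD14 and PSMD3), of PSMB5, the catalytic subunit for which a sequence was found, and of PSMA8. Each is the stretch of 250 bases before a RefSeq start site on GRCh38.p14, read 5′ to 3′ on the strand of the gene. PSMA3 lies at chr14:58244593-58244842 (plus strand), PSMB3 at chr17:38752491-38752740 (plus), PSMB5 at chr14:23035221-23035470 (minus), PSMD14 at chr2:161308175-161308424 (plus), PSMD3 at chr17:39980557-39980806 (plus) and PSMA8 at chr18:26133619-26133868 (plus). Capitals mark, on either strand, TGACNNNGC (a core of the antioxidant response element), CCAAT (bound by NF-Y), CACGTG (an E-box, bound by MYC and related factors) and CCGGAAG (bound by ETS factors). The RefSeq table used holds 2 starts for PSMB5, of which the one farther upstream is shown, and the window of the other holds none of these motifs.
PSMA3: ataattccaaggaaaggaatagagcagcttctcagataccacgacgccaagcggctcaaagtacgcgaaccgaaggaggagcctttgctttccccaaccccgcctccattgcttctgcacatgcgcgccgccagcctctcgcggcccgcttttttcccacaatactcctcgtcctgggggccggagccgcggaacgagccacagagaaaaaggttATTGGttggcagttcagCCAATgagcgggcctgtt
PSMB3: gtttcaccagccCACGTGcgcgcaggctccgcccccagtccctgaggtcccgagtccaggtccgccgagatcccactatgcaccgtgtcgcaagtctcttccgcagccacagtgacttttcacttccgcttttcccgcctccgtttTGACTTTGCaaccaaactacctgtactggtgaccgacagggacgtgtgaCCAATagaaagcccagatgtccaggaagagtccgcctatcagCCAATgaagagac
PSMB5: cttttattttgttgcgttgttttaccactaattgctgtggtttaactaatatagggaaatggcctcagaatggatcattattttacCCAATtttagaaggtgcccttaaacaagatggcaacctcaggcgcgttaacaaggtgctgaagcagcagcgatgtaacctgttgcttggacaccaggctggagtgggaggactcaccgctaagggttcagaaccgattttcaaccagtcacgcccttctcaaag
PSMD14: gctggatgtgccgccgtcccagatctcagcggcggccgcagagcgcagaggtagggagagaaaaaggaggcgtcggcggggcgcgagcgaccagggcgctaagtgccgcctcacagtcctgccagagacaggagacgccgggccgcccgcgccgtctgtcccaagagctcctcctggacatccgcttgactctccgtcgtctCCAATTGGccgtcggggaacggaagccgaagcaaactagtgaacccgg
PSMD3: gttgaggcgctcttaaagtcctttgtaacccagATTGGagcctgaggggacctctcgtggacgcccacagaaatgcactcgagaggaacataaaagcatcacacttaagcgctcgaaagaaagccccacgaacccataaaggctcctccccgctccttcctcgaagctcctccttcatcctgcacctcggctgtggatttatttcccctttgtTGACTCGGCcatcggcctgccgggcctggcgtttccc
PSMA8: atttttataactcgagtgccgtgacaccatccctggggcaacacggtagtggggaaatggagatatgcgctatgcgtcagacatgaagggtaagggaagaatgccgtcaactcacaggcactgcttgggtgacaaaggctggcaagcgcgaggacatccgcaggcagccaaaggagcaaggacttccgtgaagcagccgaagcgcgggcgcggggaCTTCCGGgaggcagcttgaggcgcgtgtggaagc

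PSMB3 held an antioxidant response element core that begins 104 bases before the start site, beside an E-box and a pair of CCAAT boxes, and PSMD3 held one that begins 37 bases before it. PSMA3 and PSMD14 each held 2 CCAAT matches, which overlap on opposite strands in PSMD14. PSMA8 had none of these but an ETS match 34 bases before its start. RefSeq promoters were found for 40 of the 47 members, in 49 windows, and none for PSMA7, PSMB1, PSMB6, PSMB7, PSMD4, PSMD5-AS1 or PSMG3. TGACNNNGC occurred in 14.3% of 14 core particle windows and 16.7% of 18 regulatory particle windows, against 10.9% of all 35116 promoters of this length. CCAAT occurred in 42.9% and 44.4%, against 32.0%, and CACGTG in 7.14% and 0%, against 6.34%. CCGGAAG was in 0 of the 14 core windows and in 6 of the 18 regulatory windows (33.3%), those of PSMC2, PSMC6, PSMD6, PSMD8, PSMD12 and PSMD13, against 8.52% of all. A match describes these letters and is no evidence of binding.

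The values are fragments relative to transcript length and to all mapped fragments (FPKM) as deposited. The paper gives sequencing depth only as an approximate range per sample, not for each library. Steps between the lowest values put the depth of the libraries at 71.4% to 92.8% of that of Scr replicate 3. Replicate 1 stood apart in both groups, with FPKM sums of 217309 and 208289 against 438262 to 480612 in the other 4 libraries. ROCK2 itself was at 2.75, 5.35 and 1.26 FPKM in ROCK2 KD replicates 1 to 3 and at 4.32, 7.21 and 5.78 in Scr. It was lower in all 3 pairs of same-numbered libraries, with a log2 fold change of −0.81 ± 0.22 (SE) that did not pass the test (limma, adjusted p = 0.811). The pair differences were −0.54, −0.36 and −1.52, and without replicate 3 the log2 fold change was −0.45. The B-cell markers MS4A1 and CD79A read 73.6 to 511 FPKM and 160.4 to 458 FPKM over the 6 libraries. CD22 was at 29.1 FPKM in ROCK2 KD replicate 3, against 85.5 in Scr replicate 3. IRF4, a marker of this lymphoma type, read 20.0 to 122 FPKM. The 9 T-cell, myeloid and fibroblast markers were each under 1 FPKM in every library, and among 3 epithelial markers EPCAM read 2.59 to 5.00 FPKM.

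Proteasome subunits were abundant, and their levels differed more between replicate numbers than between ROCK2 KD and Scr. Over the 14 core subunits the median level was 52.3, 231 and 201 FPKM in ROCK2 KD replicates 1 to 3 and 60.6, 198 and 187 FPKM in Scr. Over the 17 regulatory subunits it was 38.6, 97.8 and 107 FPKM in ROCK2 KD and 42.4, 90.4 and 106 FPKM in Scr. All 31 subunits were lowest in replicate 1 in both groups, so the groups overlapped for each of them.

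**Figure D1:**
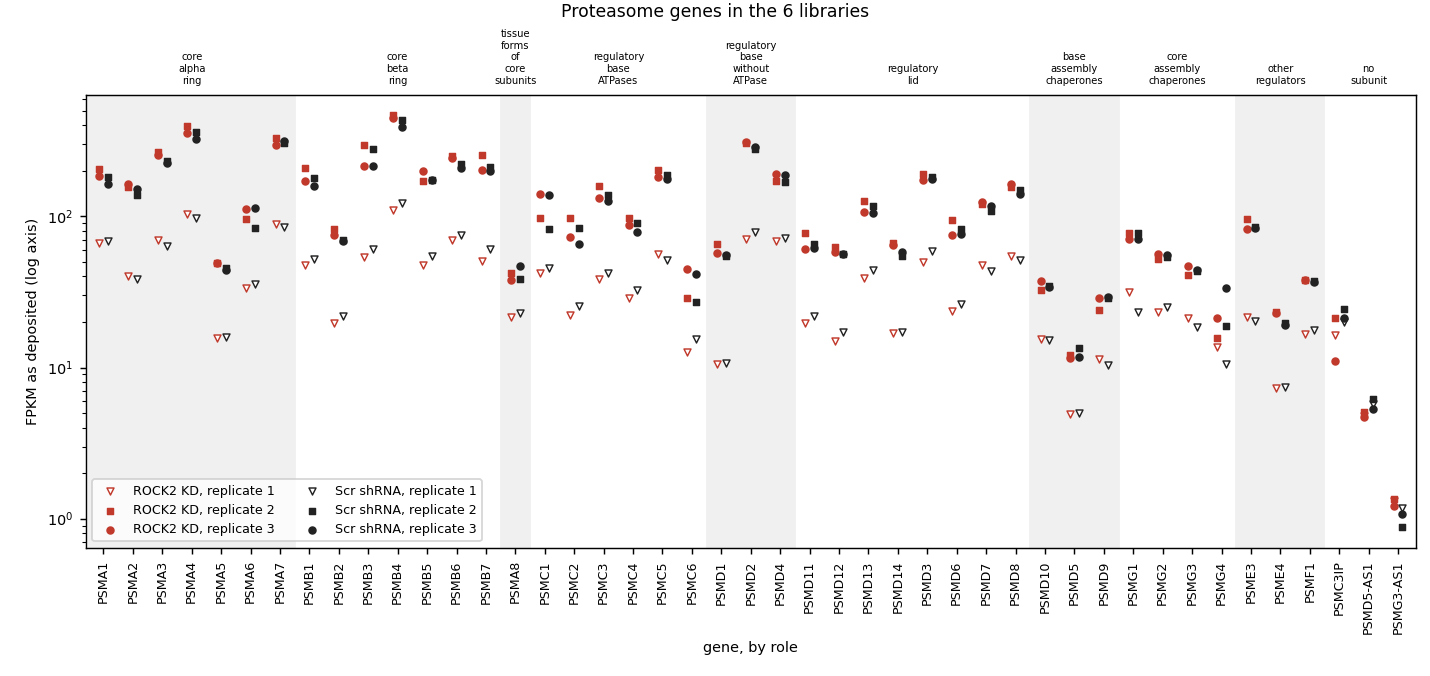
FPKM as deposited (vertical, log axis) of the 45 tested proteasome genes, ordered by role along the horizontal axis, with ROCK2 KD in red and Scr in black and 1 point for each library. Open triangles are replicate 1: for the 31 core and regulatory subunits they lie below squares and circles (replicates 2 and 3) in both groups.

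As deposited, subunits in replicate 1 were at a median of 27.8% of the mean of replicates 2 and 3 in ROCK2 KD (17.1% for PSMD1 to 39.0% for PSMD7) and at 32.1% in Scr (19.5% for PSMD1 to 45.1% for PSMC6). Part of this is shared by all genes, and the libraries were therefore scaled to each other by a trimmed mean of log ratios. On the log2(scaled FPKM + 1) scale, used for every difference between libraries or groups that follows, replicates 2 and 3 still averaged 1.01 above replicate 1 over the 31 subunits in ROCK2 KD (range 0.52 to 1.65) and 0.81 above it in Scr (range 0.29 to 1.48). These medians correspond to 2.01-fold and 1.75-fold. Over all 10526 genes tested the corresponding medians were 0.00 and −0.01, and 49.8% of genes in ROCK2 KD and 49.6% in Scr had the higher mean in replicates 2 and 3. What sets replicate 1 apart was not tested, since the labels give no batch beyond the number.

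The rest of the family varied in this shift. PSME3 was 1.198 higher in replicates 2 and 3 in ROCK2 KD and 1.206 higher in Scr, and the 3 other regulators had medians of 0.77 and 0.52. The base assembly chaperones PSMD5, PSMD9 and PSMD10 were 0.37 (median) higher in replicates 2 and 3 in ROCK2 KD and 0.46 higher in Scr. The core assembly chaperones PSMG1 to PSMG4 had medians of 0.29 and 0.41, with PSMG4 at −0.40 in ROCK2 KD and 0.41 in Scr. PSMC3IP, a recombination factor named for binding PSMC3, and the antisense RNAs PSMD5-AS1 and PSMG3-AS1 went the other way, with medians of −0.67 and −0.61. PSMA8 hardly moved, at 0.05 and 0.07.

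**Figure D2:**
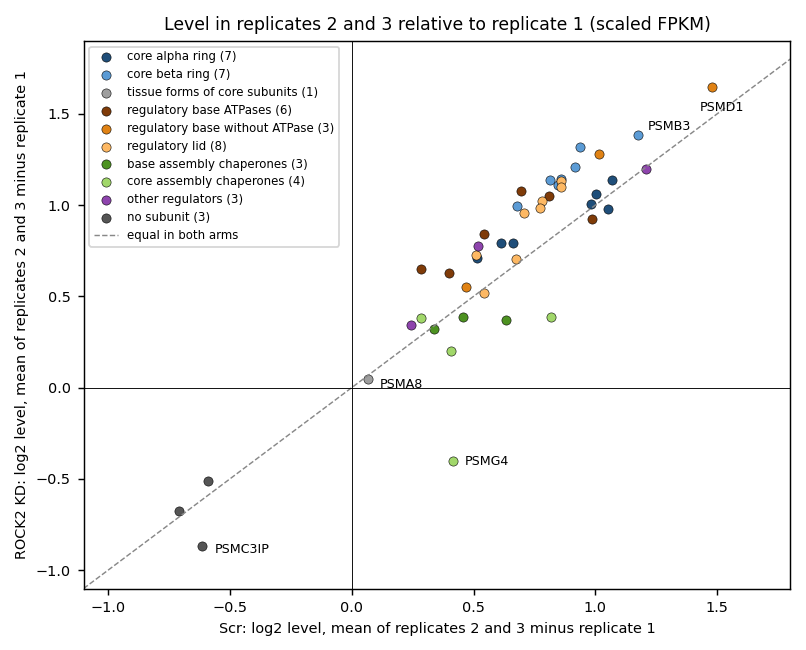
Difference between the mean of replicates 2 and 3 and replicate 1 in log2(scaled FPKM + 1), in Scr (horizontal) and in ROCK2 KD (vertical), 1 point for each of the 45 tested genes and coloured by role. The 31 core and regulatory subunits lie above 0 on both axes and the 3 tested symbols that are no subunit lie below 0 on both.

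FPKM are relative to transcript length, so that levels can also be ordered between genes. PSMB4, a beta subunit without catalytic activity, led the core particle with 111, 467 and 448 FPKM in ROCK2 KD replicates 1 to 3 and 122, 435 and 387 in Scr. The lowest core subunit, PSMA5 of the alpha ring, read 15.6, 49.1 and 48.9 FPKM in ROCK2 KD and 15.9, 45.8 and 44.5 in Scr. Levels of subunits that stand in equal number in the finished particle thus spanned 7.10-fold to 9.50-fold within a library for the core. In the regulatory particle PSMD2, a large scaffold of the base, was highest, with 71.0, 307 and 309.9 FPKM in ROCK2 KD and 78.7, 277 and 289 in Scr. The ATPase PSMC6 was lowest on average, with 12.7, 29.0 and 45.0 FPKM in ROCK2 KD and 15.4, 27.1 and 41.3 in Scr. From PSMC6 to PSMD2 the mean level rose from 28.4 to 222 FPKM.

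The order of the 31 subunits was much alike between libraries, with Spearman coefficients across subunits of 0.937 to 0.994 over the 15 pairs of libraries. Subunits of a library share its depth and scaling, and these coefficients are a description. Neighbours in the order were mostly not separable: only 5 of 30 neighbouring pairs kept their order in all 6 libraries. These were PSMB4 over PSMA4, PSMA4 over PSMA7, PSMC4 over PSMD6, PSMB2 over PSMD11 and PSMA5 over PSMC6, with mean log2 ratios of the deposited FPKM of 0.11 to 0.35. The pairs at the top were steady, with a log2 ratio of PSMB4 to PSMA4 of 0.25 ± 0.09 (SD, n = 6 libraries) and of PSMA4 to PSMA7 of 0.21 ± 0.08.

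Silencing was compared within replicate numbers, since same-numbered libraries deviated together. None of the 45 tested members had an adjusted p under 0.05 (limma with the replicate number as a block, 10526 genes tested), as was true of all genes (percent called 0%). The paper does report differentially expressed genes for this contrast at an FDR under 0.05. Its test used ComBat and limma on counts, and was not repeated here. At an unadjusted p under 0.05, 0 members were higher (3.09% of all genes) and 1 was lower, PSMC3IP (2.3% of all genes). The fit without the block called 0 members and 0 genes at the adjusted threshold and 0 members at the unadjusted one (0.285% of all genes). ComBat on the replicate number followed by limma also called 0 members at the adjusted threshold (2.82% of all genes passed there), and at the unadjusted one 6 members higher (10.3% of all genes) and 2 lower (9.77%). The limma step there took no account of the replicate effects already removed, so its p-values tend to be too low. PSMB11, the thymus form of PSMB5, was listed at 0 in every library, and PSMD6-AS2 was at 0.258 to 0.595 FPKM, so neither was tested. The p-values of the fit with the block rest on the spread of the 3 pair differences and on a variance trend over all genes. That spread may be technical, and in bulk RNA fewer cells of a kind cannot be told apart from less RNA in each cell.

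The estimates were small. The median log2 fold change, ROCK2 KD against Scr, was 0.06 over the core subunits and 0.03 over the regulatory subunits, beside −0.00 over all genes. Among the 31 subunits it ran from −0.08 (PSMD3) to 0.15 (PSMA3), with standard errors of 0.09 to 0.12. Their 95% confidence intervals, each for a single gene, all lay between −0.32 and 0.38, or 0.804-fold to 1.30-fold. A change larger than that was outside the interval of each of these 31 subunits, while each interval held smaller changes in both directions. This does not cover subunits with other names. The interval of ADRM1, a ubiquitin receptor of the base, ran from −0.59 to −0.06. For scale, the SD within a group had a median of 0.63 in ROCK2 KD and 0.52 in Scr for the core, 0.57 and 0.45 for the regulatory particle, and 0.30 and 0.28 for all genes. The SD of the 3 pair differences had a median of 0.15 for the core, 0.16 for the regulatory particle and 0.18 for all genes.

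**Figure D3:**
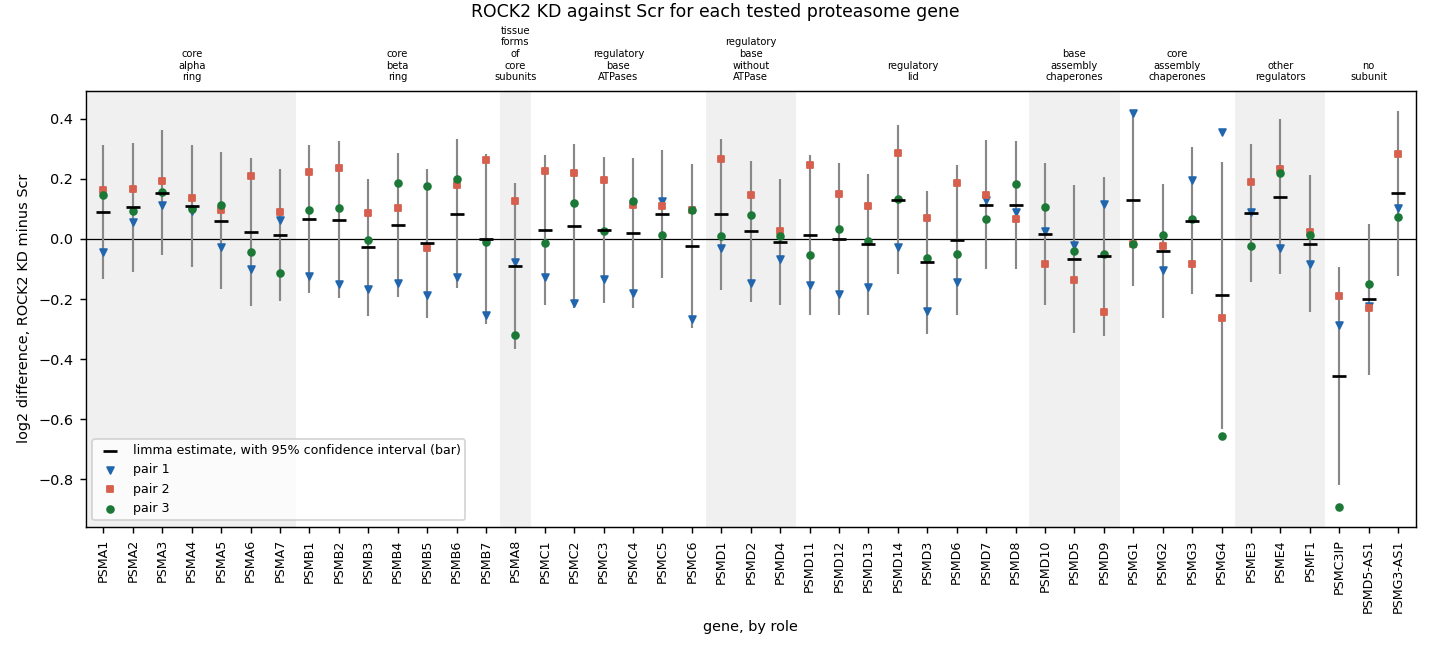
Log2 difference between ROCK2 KD and Scr (vertical) for the 45 tested proteasome genes by role (horizontal), as the limma estimate with its 95% confidence interval and as the differences of pairs 1, 2 and 3. Of the intervals, that of PSMC3IP alone leaves out 0, and the blue triangles of pair 1 lie below the red squares of pair 2 for most subunits.

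In the alpha ring all 7 estimates were above 0, with a median of 0.09. PSMA3 read 69.4, 266 and 254 FPKM in ROCK2 KD and 64.0, 232 and 224 in Scr, and was higher in all 3 pairs, by 0.11, 0.19 and 0.16. Its estimate of 0.15 ± 0.09 (SE) did not pass the test (limma, adjusted p = 0.957). PSMA2 and PSMA4 were also higher in every pair, by 0.06 to 0.17 and 0.09 to 0.14. The lowest estimate of the ring was that of PSMA7, 0.01 ± 0.09, with 88.4, 328 and 296 FPKM in ROCK2 KD and 84.5, 308 and 315 in Scr. PSMA5, the least abundant of the ring, had an estimate of 0.06 ± 0.10. Groups overlapped for each of the 7.

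In the beta ring 4 estimates were above 0 and 3 below, with a median of 0.05, and the pairs split. PSMB5, the chymotrypsin-like site, read 47.8, 171 and 199.99 FPKM in ROCK2 KD and 54.6, 175 and 174 in Scr. PSMB6, the caspase-like site, read 69.4, 252 and 244 FPKM in ROCK2 KD and 75.8, 222 and 209 in Scr. PSMB7, the trypsin-like site, read 50.7, 256 and 201 FPKM in ROCK2 KD and 60.6, 213 and 199.7 in Scr. Each catalytic subunit was thus lower with ROCK2 KD in replicate 1, and none had the same sign in all 3 pairs. Their estimates were −0.01 ± 0.10 for PSMB5, 0.08 ± 0.10 for PSMB6 and 0.00 ± 0.12 for PSMB7 (limma, lowest adjusted p = 0.982). The highest estimate of the ring was that of PSMB6 and the lowest that of PSMB3, −0.03 ± 0.10, at 53.9, 295 and 216 FPKM in ROCK2 KD and 60.6, 277 and 214 in Scr. PSMB4, the most abundant, was at 0.05 ± 0.10.

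Tissue forms add to the core in some organs. PSMA8, which takes the place of PSMA7 in the testis, was listed at 21.7, 42.3 and 37.7 FPKM in ROCK2 KD and 22.9, 38.6 and 46.6 in Scr in this lymphoma line. That was 12.5% to 27.1% of PSMA7 and 77.0% to 144% of PSMA5 in the same library. Its gene (GRCh37, chr18:23713816-23773319, plus strand, protein-coding) shares 0 of its 1987 stretches of 50 transcript bases with any other GENCODE 44 gene, PSMA7 included. Its estimate was −0.09 ± 0.12 (limma, adjusted p = 0.982), with pair differences of −0.08, 0.13 and −0.32. How its reads lie along the gene was not analysed here.

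Among the base ATPases 5 of 6 estimates were above 0, with a median of 0.03. PSMC5 was the highest, 0.08 ± 0.09, and the only ATPase higher in all 3 pairs, at 56.3, 202 and 181 FPKM in ROCK2 KD and 51.5, 187 and 177 in Scr. PSMC6 was the lowest, −0.02 ± 0.11, with differences of −0.27, 0.10 and 0.10 in pairs 1 to 3. PSMC1 shares 85.2% of its 50-base stretches with other genes, most with NRDE2, so that its FPKM are uncertain. The base without ATPases ran from −0.01 ± 0.09 for the ubiquitin receptor PSMD4 to 0.08 ± 0.11 for the scaffold PSMD1. PSMD4 read 69.1, 171 and 192 FPKM in ROCK2 KD and 72.4, 168 and 187 in Scr. PSMD1 read 10.5, 65.5 and 57.0 FPKM in ROCK2 KD and 10.7, 54.3 and 55.7 in Scr. PSMD2 was at 0.03 ± 0.10, and all 3 of these genes were lower in pair 1 and higher in pairs 2 and 3.

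In the lid 5 of 8 estimates were above 0 and the median was 0.01. PSMD14, the deubiquitinase that takes the chain off the substrate, was the highest of the regulatory particle, 0.13 ± 0.10 (limma, adjusted p = 0.969). It read 16.9, 66.7 and 64.6 FPKM in ROCK2 KD and 17.2, 54.5 and 57.8 in Scr, higher in pairs 2 and 3 only. PSMD3, a structural subunit of the lid, was the lowest, −0.08 ± 0.10 (limma, adjusted p = 0.982), at 49.8, 191 and 173 FPKM in ROCK2 KD and 58.8, 182 and 178 in Scr. It was higher in pair 2 only. PSMD7 and PSMD8 were higher in all 3 pairs, by 0.07 to 0.15 and 0.07 to 0.18.

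Taking each pair alone, most subunits were lower with ROCK2 KD in pair 1, most were higher in pair 2 and most were higher in pair 3. These were not the same subunits throughout. In pair 1, 24 of 31 subunits were lower with ROCK2 KD (48% of all genes), with medians of −0.11 for the core and −0.14 for the regulatory particle. In pair 2, 30 of 31 were higher (48.7% of all genes), with medians of 0.16 and 0.15. In pair 3, 22 of 31 were higher (49.9% of all genes), with medians of 0.10 and 0.03, and the lid was split there, with 4 higher and 4 lower. All 7 beta ring subunits were lower in pair 1, by 0.12 to 0.25, whereas the alpha ring had 3 of 7 lower there. Both patterns combined in 23 of 31 subunits (74.2%), which were lower in pair 1 and higher in pair 2, as were 25% of all genes. Members of one complex vary together across libraries, so these are not 31 independent values.

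**Figure D4:**
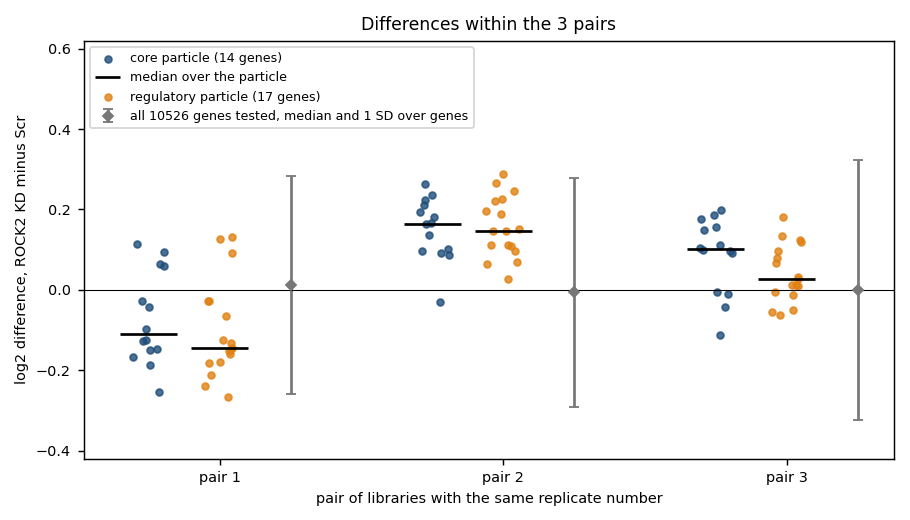
Log2 difference between ROCK2 KD and Scr in each of the 3 pairs of same-numbered libraries, 1 point for each subunit of the core (blue) and regulatory (orange) particle, with the median as a black line. Grey diamonds with bars give the median and 1 SD over all 10526 genes tested; the medians of both particles are below 0 in pair 1 and above 0 in pairs 2 and 3.

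The share of members with 1 direction throughout was near that of all genes. Of the 45 tested members 10 (22.2%) had the same direction in all 3 pairs, as did 25% of all genes. The 7 that were higher were PSMA2, PSMA3, PSMA4, PSMC5, PSMD7, PSMD8 and PSMG3-AS1 (15.6%, against 12.7% of all genes). The 3 that were lower were PSMC3IP, PSMD5 and PSMD5-AS1 (6.67%, against 12.3%). Of these, PSMA2 and PSMD7 share 29.0% and 27.7% of their 50-base stretches with other genes.

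Assembly factors were lower in pair 2. All 3 base chaperones were lower with ROCK2 KD in pair 2, by 0.09 to 0.24, and all 4 core chaperones too, by 0.02 to 0.26. So were 5404 of all 10526 genes, and each of these differences was smaller than the SD over all genes in that pair, 0.29. In pair 1, 2 of the 3 and 3 of the 4 were higher, as were 5472 of all 10526 genes. PSMD10 (gankyrin) had the highest estimate of the base chaperones, 0.02 ± 0.10, at 15.5, 32.7 and 37.2 FPKM in ROCK2 KD and 15.2, 34.8 and 33.9 in Scr. PSMD5 had the lowest, −0.07 ± 0.10, at 4.91, 12.1 and 11.6 FPKM in ROCK2 KD and 4.99, 13.4 and 11.8 in Scr. PSMG1, which pairs with PSMG2 to build the alpha ring, had an estimate of 0.13 ± 0.12 (limma, adjusted p = 0.970). This rested on pair 1, since it read 31.6, 77.1 and 70.7 FPKM in ROCK2 KD and 23.4, 78.0 and 70.4 in Scr. PSMG4, the partner of PSMG3, was the most uneven, at 13.7, 15.6 and 21.1 FPKM in ROCK2 KD and 10.5, 18.9 and 33.5 in Scr. Its pair differences were 0.36, −0.26 and −0.66, and its estimate was −0.19 ± 0.19 (limma, adjusted p = 0.974).

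Other regulators bind the ends of the core in place of the regulatory particle. PSME4 (PA200), a nuclear activator, had the highest estimate, 0.14 ± 0.11 (limma, adjusted p = 0.967). It read 7.28, 23.3 and 22.8 FPKM in ROCK2 KD and 7.45, 19.6 and 19.1 in Scr. PSMF1 (PI31), known as an inhibitor of the core in vitro, was at −0.02 ± 0.10, with 16.7, 38.1 and 37.8 FPKM in ROCK2 KD and 17.7, 37.4 and 36.9 in Scr. PSME3, the nuclear PA28 activator, lay between them at 0.09 ± 0.10.

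PSMC3IP (HOP2), which works in homologous recombination and is no subunit, was the member farthest from 0. It read 16.3, 21.2 and 11.1 FPKM in ROCK2 KD and 20.1, 24.3 and 21.3 in Scr, and the groups overlapped through ROCK2 KD replicate 2. It was lower in all 3 pairs, by 0.29, 0.19 and 0.89, and its estimate was −0.46 ± 0.15 (limma, unadjusted p = 0.021, adjusted p = 0.888). Without replicate 3 the estimate was −0.24. Without replicate 1, at an unadjusted p under 0.05, PSMC3IP and PSMG4 were lower (5.68% of all genes) and 0 members were higher (3.14%), while 0 passed the adjusted threshold (0.162%). ROCK2 KD replicate 3, which held its lowest value, was also the library with the lowest ROCK2, and the part of this in the value was not tested. PSMC3IP shares 23.8% of its 50-base stretches with MLX, which overlaps it on the other strand, and Nextera libraries do not mark strand, so reads from a stretch transcribed on both strands cannot be told apart. PSMG3-AS1 shares 0.271% of its stretches with other genes, and those of PSMD5-AS1 were not counted. PSMD5-AS1 read 4.72 to 5.09 FPKM in ROCK2 KD and 5.29 to 6.18 in Scr, and PSMG3-AS1 read 1.21 to 1.34 and 0.881 to 1.18. These were the only members tested whose groups did not overlap as deposited, 1 of 45 lower (0.58% of all genes) and 1 of 45 higher (0.437%). Their estimates were −0.20 ± 0.11 and 0.15 ± 0.12 (limma, adjusted p = 0.957 and 0.962).

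Genes of the pathway with other names gave few differences. Of 10 tested partners of the particle 0 were higher and 1 was lower at an unadjusted p under 0.05, and 0 passed the adjusted threshold, where 3.09% of all genes were higher, 2.3% were lower and 0% passed. The lower one was ADRM1, the ubiquitin receptor RPN13 of the base, at 38.2, 65.6 and 103 FPKM in ROCK2 KD and 50.6, 92.6 and 108 in Scr. It was lower in all 3 pairs, by 0.40, 0.49 and 0.09, with an estimate of −0.33 ± 0.11 (limma, adjusted p = 0.888). Its unadjusted p was not under 0.05 without the replicate block, without replicate 1 or without replicate 2. The lid subunit SHFM1 (now SEM1) read 106, 335 and 280.1 FPKM in ROCK2 KD and 109, 299 and 289 in Scr, with an estimate of 0.02 ± 0.09. POMP, the chaperone of core maturation, read 35.5, 106 and 116 FPKM in ROCK2 KD and 35.9, 116 and 108 in Scr. The deubiquitinase USP14 read 13.4, 36.2 and 30.3 FPKM in ROCK2 KD and 13.1, 33.1 and 31.9 in Scr. Their estimates were −0.02 for POMP and 0.02 for USP14.

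Of the 6 ubiquitin and E1 genes, the 11 shuttle factors and segregase genes and the 8 genes of proteasome gene transcription tested (transcription factors and NGLY1, the glycanase that processes NFE2L1), 0 had an unadjusted p under 0.05, which 567 of all 10526 genes had. Their medians were 0.04, −0.01 and 0.04. NFE2L1 read 57.3, 44.2 and 38.9 FPKM in ROCK2 KD and 59.3, 43.2 and 38.7 in Scr, so that its level was highest in replicate 1, where subunits were lowest. On the scaled log2 level its replicates 2 and 3 stood at −1.27 relative to replicate 1 in ROCK2 KD and at −1.33 in Scr, and its estimate for silencing was −0.01 ± 0.09. NFE2L2 read 17.8, 32.9 and 26.1 FPKM in ROCK2 KD and 18.7, 28.0 and 24.1 in Scr, with an estimate of 0.08 ± 0.11.

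The immunoproteasome genes were left out by the rule. At an unadjusted p under 0.05, 4 of the 5 were higher with ROCK2 KD (PSMB8, PSMB9, PSME1 and PSME2), as were 3.09% of all genes, and 0 passed the adjusted threshold, with estimates of 0.27 to 0.41 (limma, lowest adjusted p = 0.811). Without the replicate block 0 of the 4 were under this threshold, and without the variance trend PSMB8 and PSMB9 were not. Without replicate 1, PSME1 and PSME2 alone stayed under it, and without replicate 3 PSME1 alone. PSMB8 was not under it without replicate 2, nor PSMB9 without a filter on low values. Whether these genes differed from the subunits was not tested. PSME1 read 92.7, 209.8 and 331 FPKM in ROCK2 KD and 66.3, 189 and 215 in Scr, and PSME2 read 113, 207 and 506 FPKM against 96.7, 186 and 346. PSMB8, the inducible counterpart of PSMB5, was listed at 23.7, 68.1 and 9.45 FPKM in ROCK2 KD and at 16.4, 61.5 and 8.03 in Scr. PSMB9, the counterpart of PSMB6, was listed at 25.99, 52.0 and 8.86 FPKM in ROCK2 KD and at 18.0, 53.3 and 5.88 in Scr. In both replicate 3 libraries these 2 genes carry values that become numbers of 6 digits when multiplied by 8, unlike in the other 4 libraries. They entered the test as deposited and may be on another scale there, and their levels are not compared with replicates 1 and 2 or with those of PSMB5 and PSMB6. Values written with more than 6 digits numbered 189 in ROCK2 KD replicate 3 and 183 in Scr replicate 3, against 60 to 72 in the other libraries, and 0 of them belonged to the 47 members.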

How the data were processed

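RNA-seq of 3 ROCK2 KD and 3 Scr libraries was analysed. The authors made Nextera libraries, aligned paired reads of 50 bases to hg19 with STAR and computed FPKM with Cufflinks, and these deposited FPKM were used here. The count tables behind the authors' own test, ComBat and limma on counts, were not used here. Scaling used a trimmed mean of the log ratios between libraries (trims 0.3 and 0.05). A gene entered the test when 3 or more libraries reached FPKM 1, which left 10526 genes, and log2(scaled FPKM + 1) was the scale, on which changes of low genes are understated. The model of limma 3.58.1 (R 4.3.3) held condition and replicate number, the latter as a block, and a variance trend, two-sided, with Benjamini-Hochberg adjustment over all genes at 0.05. It was tested on simulated data. Same numbers mark pairs: deviations from group means correlated at 0.737 to 0.848 across genes, against −0.64 to 0.05 between different numbers. Members and lists were chosen with earlier results of these data known. Values per library are given for the catalytic subunits, the highest and lowest estimate of each role list of members, the highest and lowest level of each particle and genes with an unadjusted p under 0.05, and for 6 chosen genes of the pathway. Alternatives changed the block, ComBat, pseudocount (0.1), filter, scaling and trend, and left out each replicate. FPKM hold no read counts, so no counting interval is given. Promoters are RefSeq's. Shared 50-base stretches were counted in GENCODE 44 transcripts (GRCh37) with Python 3.11.15 and pandas 2.3.3. A planned marker is not reported here.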

Additional observations from a re-analysis of the deposited data

How the results depend on the processing

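The number of members with an adjusted p under 0.05 was 0 under all 12 alternatives, although limma called 297 genes in all after ComBat, 17 without replicate 1 and 4 without replicate 3. After ComBat, limma took no account of the replicate effects already removed, so the p-values of that setting tend to be too low. At an unadjusted p under 0.05, ComBat gave 6 members higher (PSMA2, PSMA3, PSMA4, PSMD7, PSMD8 and PSMG3-AS1) and 2 lower (PSMC3IP and PSMD5-AS1). Without the replicate block, and without a filter on low values, 0 were lower, and leaving out 1 replicate gave 0 to 2 lower, the 2 (PSMC3IP and PSMG4) without replicate 1. The replicate block changes p-values and not estimates in this balanced design, so the median log2 fold changes without the replicate block, 0.06 for the core and 0.03 for the regulatory particle, are those with it by construction. With 1 replicate left out these medians ran from 0.01 to 0.13 and from −0.05 to 0.11, each lowest without replicate 2 and highest without replicate 1. PSME1, outside the rule, reached an adjusted p of 0.049 (limma) after ComBat, with a log2 fold change of 0.30. Of 34 named genes 32 kept their direction under every alternative that kept all libraries. The exceptions were PSMB7, at 0.0011 after ComBat, 0.0029 without a filter and 0.0081 without scaling, and NFE2L1, at 0.0043 after ComBat. With 1 replicate left out, 19 named genes changed sign: the ranges were −0.032 to 0.0097 for NFE2L1, −0.069 to 0.030 for POMP, −0.025 to 0.077 for PSMA7, −0.20 to 0.026 for PSMA8, −0.086 to 0.041 for PSMB3, −0.023 to 0.14 for PSMB4, −0.11 to 0.072 for PSMB5, −0.13 to 0.13 for PSMB7. They were −0.085 to 0.096 for PSMC6, −0.0088 to 0.14 for PSMD1, −0.029 to 0.068 for PSMD10, −0.034 to 0.11 for PSMD2, −0.15 to 0.0031 for PSMD3, −0.028 to 0.018 for PSMD4, −0.035 to 0.018 for PSMF1, −0.015 to 0.20 for PSMG1, −0.46 to 0.048 for PSMG4, −0.053 to 0.062 for SHFM1 and −0.030 to 0.079 for USP14. The cause was not tested. The depth is known only as the approximate range in the paper and not for each library, so no limit in reads was set for low genes.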
